A study of Mus musculus with 21 samples.

Results

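The clustered protocadherins were examined in RNA-Seq libraries of mouse cochlear cells, as the genes of the deposited count table whose symbols are Pcdh followed by the cluster letters (a, ac, b, ga, gb or gc) and a number. The rule found 58 of 52550 genes, 14 in the alpha cluster, 22 in the beta cluster and 22 in the gamma cluster, and it used no measured value. The study profiled spiral ganglion neurons (SGNs), the neurons that carry sound signals from the cochlea to the brain, at 5 ages from E15.5 to P30, with hair cells (HCs), the sensory cells of the inner ear, at P12 and glia of the ganglion at P8. Each of the 7 groups had 3 libraries. The labels do not say that the 3 came from separate animals, so the p-values measure only the spread between these libraries.

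Clustered protocadherins are cell-surface adhesion proteins of the cadherin superfamily that bind like molecules on neighbouring cells and are known best from neurons, where they serve self-recognition of neurites and neuron survival. Each variable exon carries its own promoter and codes for the extracellular domains, the transmembrane segment and a short cytoplasmic stretch. In the alpha and gamma clusters this exon is spliced to constant exons that all members of the cluster use, whereas beta genes consist of a single exon. Most promoters are chosen in each cell in a manner that looks random, while the C-type genes (Pcdhac1, Pcdhac2, Pcdhgc3, Pcdhgc4 and Pcdhgc5) are regulated separately.

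All mice were C57BL/6 and carried the Rosa26-CAG-loxp-stop-loxp-tdTomato/+ (Ai9) reporter, so every profiled cell was a tdTomato-labelled cell. SGNs came from ShhCre/+ cochleae of the embryonic day and the 4 postnatal days named in the results, E15.5, P1 and P8 and then P14 and P30, with 69 to 195 cells in a library. HCs came from Atoh1-CreER+ mice given tamoxifen at P0 and P1, with about 1200 cells in a library, and they mixed cochlear with vestibular HCs. The labels state picking by hand for all groups, whereas the methods of the study state fluorescence sorting for HCs. Glia came from the SGN area of vGlut3-iCreER/+ mice given tamoxifen at P2 and P3, with 86 to 125 cells in a library. The deletion of the stop cassette depends on the Cre driver, so each group holds the cells that its driver labels.

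Libraries held 10368240 to 37287489 counts assigned to genes. With these totals, 3 counts correspond to 0.0805 to 0.289 counts per 1000000 (CPM). RNA was amplified and no molecular identifiers were used, so floors and counting intervals cover counting error only. Summed SGN markers were at 532 to 1806 CPM in SGN libraries and at 12.2 to 22.9 CPM in HC libraries. Glia replicate 1 had 248 CPM of them, against 25.8 and 32.7 CPM in the other 2 glial libraries. Summed HC markers were at 3418 to 3463 CPM in HCs and at 84.1 to 347 CPM in SGNs. Glial markers were at 11250 to 14592 CPM in glia, at 799 to 1082 CPM in P8 SGNs and at 5.18 to 118 CPM in P30 SGNs. The part of these carried-over transcripts in the results on the clusters was not tested, except where a value is given beside the result. Because the libraries are bulk samples of picked cells, fewer cells using a promoter and less RNA in each cell cannot be told apart.

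The 3 clusters lie in a row on the plus strand of chromosome 18 (GRCm38), alpha at 36930184 to 37187661, beta at 37264938 to 37524479 and gamma at 37661793 to 37841873. The constant exons mean that a read there cannot be given to one gene. Among themselves, alpha members shared 2860 to 2864 bases of exon and gamma members shared 2116 to 3157 bases. Beta members shared a median of 0 bases with each other, and the highest value was 455 bases, between Pcdhb21 and Pcdhb22. How the counting treated reads on shared exons is not given in the sources used here, so counts of alpha and gamma members are uncertain to that extent. Annotated genes that are not members overlapped all 22 gamma members, 5 alpha members and 1 beta member, and without the strand setting their reads cannot be told apart. Counting these overlaps too, Pcdhga10 had 0 of 4732 bases of its own, with 0 counts in all 21 libraries, and Pcdha4 had 404 of 5768. With overlaps on the same strand alone, Pcdhga10 had 2613. The overlapping genes Gm37013, Gm37388, Gm38182 and Gm42416 also had 0 counts throughout. Counting without strand that left out reads on shared bases would give 0 for Pcdhga10, but the settings are not stated. Pcdhb12, the beta member concerned, had 1107 of 3034 bases of its own, since a gene on the opposite strand overlaps it. The symbol Pcdha11 stands for 2 gene identifiers, ENSMUSG00000007440 and ENSMUSG00000102206, and both were kept. Levels of different members are compared below only in reads per kilobase of exon that no other gene shares, scaled to the library total (unshared RPKM), and CPM is used within a member or for sums.

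Nearly the whole family was detected in SGNs. Members above 1 CPM numbered 45 to 55 of 58 in SGN libraries, 48 to 50 in HC libraries and 24, 26 and 38 in glial libraries. The glial shortfall was widest in the alpha cluster, where 0, 1 and 4 of 14 members passed 1 CPM, while 16 to 18 of 22 gamma members did. The heat map of all members shows the glial alpha block nearly empty.

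**Figure D1:**
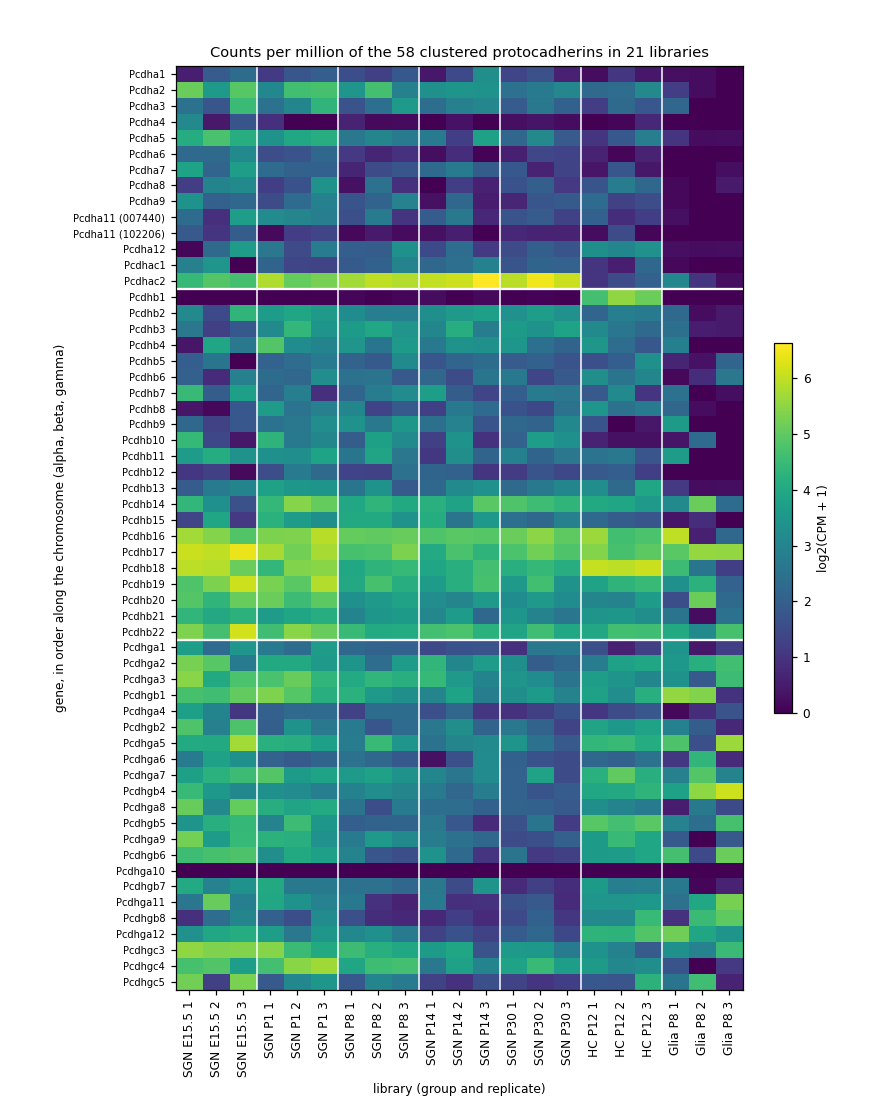
Level of each of the 58 clustered protocadherins (rows, in chromosome order within alpha, beta and gamma) in each of the 21 libraries (columns, by group), as log2(CPM + 1) in colour. Pcdhac2 stands out among alpha members in SGNs, Pcdhb1 is filled in the 3 HC libraries, and the alpha rows are near 0 in glia.

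Summed over members, the clusters differed in how they moved with age and cell type. Gamma transcripts summed to 401 ± 63.6 CPM (SD, n = 3) in E15.5 SGNs and 289 ± 29 CPM in P1 SGNs. The gamma sum was 161 ± 10.47 CPM by P8, 112 ± 18 CPM by P14 and 91.4 ± 23.4 CPM by P30. The E15.5 libraries (329 to 452 CPM) and the P30 libraries (65.2 to 110 CPM) did not overlap. In HCs and glia, the gamma sum was 248 ± 19.5 and 273 ± 60.5 CPM, above each SGN library from P8 on. With trimmed mean of M-values (TMM) factors, however, the means of HCs and of P8 SGNs were both 179 CPM.

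Beta transcripts summed to 381 ± 40.1 CPM in E15.5 SGNs and 392 ± 29.5 CPM in P1 SGNs. They were at 245 ± 16.1 CPM by P8, 221 ± 21.4 CPM by P14 and 226 ± 25.6 CPM by P30. The fall of the sum therefore lay between P1 and P8, with no overlap of the libraries of these ages. HCs had 292 ± 13.6 CPM and glia 152 ± 49.8 CPM. The order of HCs and P14 SGNs rested on the scaling, since with TMM factors the beta sum was 212 CPM in HCs and 265 CPM in P14 SGNs.

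The alpha sums of the SGN ages overlapped, with 128 ± 27 CPM at E15.5 and 103 ± 20.9 CPM at P30, and the direction turned with TMM factors (111 and 126 CPM). HCs had 34.3 ± 6.74 CPM. The 3 glial libraries had 14.1, 1.67 and 1.16 CPM, with the highest value in replicate 1, the library with the most SGN marker transcripts. Without Pcdhac2 the alpha sum was 104 ± 28.6 CPM at E15.5 and 31.0 ± 6.67 CPM at P30, with no overlap.

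**Figure D2:**
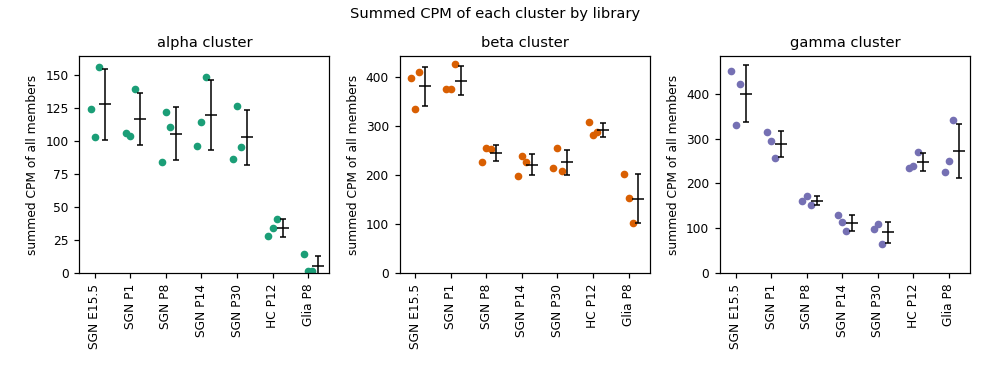
Summed CPM of the alpha, beta and gamma clusters in every library (points) with the group mean and SD (bars), by group. The gamma sum goes from 401 CPM at E15.5 to 91.4 CPM at P30 in SGNs, while the alpha sum stays between 103 and 128 CPM and is lowest in glia.

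Pcdhac2, the last gene of the alpha cluster and a C-type member, was the alpha gene with the highest unshared RPKM over the SGN libraries (18.0, against 5.79 for Pcdha2 and 4.28 for Pcdha5). Its CPM was 20.8, 28 and 24.5 at E15.5, 56.6, 32.5 and 37.9 at P1 and 51.7, 62.4 and 57.6 at P8. It was 64.3, 68.7 and 98.1 CPM at P14 and 60.7, 88.0 and 67.4 CPM at P30. Every library after birth was above every E15.5 library. Between E15.5 and P30 Pcdhac2 rose by 1.98 on the log2 scale (SE 0.30, limma adjusted p = 6.8e-05). Its log2 change over the alternative settings ran from 1.5 to 2.10, and the call was kept in all 16.

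Measured per kilobase of unshared exon, Pcdhac2 made up 10.2 to 21.9% of the alpha cluster at E15.5, 22.4 to 44.6% at P1 and 45.0 to 53.5% at P8. Its share was 53.2 to 60.9% at P14 and 63.0 to 63.9% at P30. On this measure the ranges of neighbouring ages touched only between P8 and P14, where the highest P8 library lay above the lowest P14 library. As a share of alpha counts without length, the ranges also overlapped at earlier steps. The highest E15.5 library had 27.2% and the lowest P1 library 27.1%, and the highest P1 library had 53.2% and the lowest P8 library 50.9%. The evenness of each cluster was described by the effective number of members, which is 1 divided by the sum of squared shares and equals the number of members when all are equal. For alpha it was 7.78 ± 2.09 (SD, n = 3) at E15.5 and 2.4 ± 0.0355 at P30. For gamma it was 12.9 ± 1.59 at E15.5 and 12.5 ± 0.814 at P30.

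Outside SGNs, Pcdhac2 was low. HC libraries had 0.983, 1.93 and 3.12 CPM, and it was 2.65 to 5.43% of the alpha cluster there. Glial libraries had 7.34, 1.00 and 0.193 CPM, which are 145, 12 and 2 counts. All 15 SGN libraries were above all HC and glial libraries. Against HCs, Pcdhac2 was higher in the mean of the 5 SGN ages by 5.26 on the log2 scale (SE 0.72, limma adjusted p = 2.98e-06), and against glia by 5.24 (SE 0.79, adjusted p = 1.41e-05). Pcdhac2 was above 1 CPM in all libraries of a group only in SGNs, so it entered these tests through SGN libraries alone. The largest glial value fell in replicate 1, whose SGN markers were at 248 CPM.

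Pcdhac1, the neighbouring C-type alpha gene, was far lower. It had 6.44, 9.93 and 0 CPM at E15.5 and 2.28, 3.43 and 3.27 CPM at P30, and no age step called it. Its libraries were 0.467 to 3.74 CPM in HCs, and 0.101, 0 and 0 CPM in glia. The alternate alpha genes Pcdha5 and Pcdha7 fell between E15.5 and P30. Pcdha5 went from 16.1, 25.3 and 16.6 CPM to 3.54, 7.75 and 2.71 CPM (log2 change -1.75, SE 0.57, limma adjusted p = 0.0215). Pcdha7 went from 13.4, 3.47 and 12.2 CPM to 2.52, 0.589 and 1.55 CPM (log2 change -2.00, SE 0.76, adjusted p = 0.044). In both genes the 2 ages did not overlap. The Pcdha5 call was kept in 13 of 16 alternative settings and the Pcdha7 call in 7 of 15, with an adjusted p of up to 0.157 for Pcdha7. Pcdha2, the second alpha gene by level, had 33.8, 11.0 and 29.0 CPM at E15.5 and 4.67, 5.59 and 7.41 CPM at P30 and did not pass the test.

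**Figure D3:**
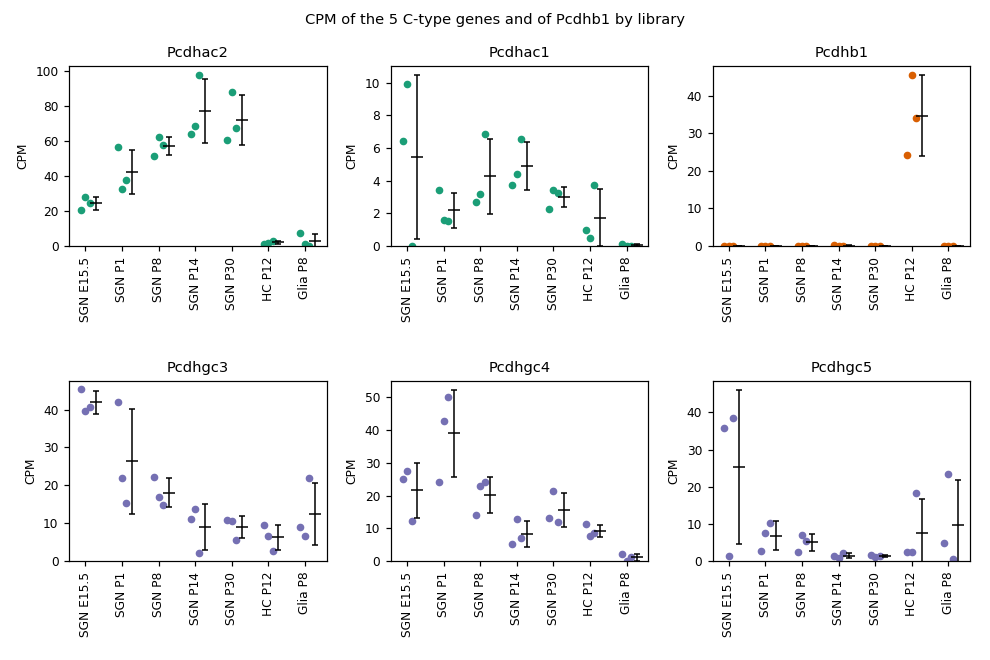
CPM of the 5 C-type genes and Pcdhb1 in every library, by group, with group means. Pcdhac2 lies above 20 CPM in all SGN libraries and below 8 CPM in all HC and glial libraries, and Pcdhb1 lies at 24.2 to 45.6 CPM in HCs and near 0 elsewhere.

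Age steps were tested with limma on the 15 SGN libraries, in which 55 members passed the filter of more than 1 CPM in all libraries of a group (not Pcdha4, Pcdhb1 and Pcdhga10). A call needed a change of more than 2-fold and an adjusted p under 0.05. From E15.5 to P1, 3 members rose and 0 fell, against 8.26% of all genes tested called in either direction (5.08% higher and 3.18% lower). All 3 were beta genes. Pcdhb3 went from 5.20, 1.39 and 2.54 CPM to 8.06, 19.96 and 9.76 CPM (log2 change 2.28, SE 0.70, adjusted p = 0.046). Pcdhb14 had 20.1, 9.07 and 2.13 CPM at E15.5 and 20.4, 42.0 and 32.7 CPM at P1 (log2 change 2.25, SE 0.60, adjusted p = 0.0236). Pcdhb8 went from 0.310, 0.107 and 2.54 CPM to 11.6, 4.75 and 6.39 CPM (log2 change 4.03, SE 1.16, adjusted p = 0.0341). The groups did not overlap for any of the 3 genes, though for Pcdhb14 the gap was 20.1 to 20.4 CPM. None of the 3 calls was kept in every alternative setting, and without E15.5 replicate 3 no member was called.

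From P1 to P8, 0 members rose and 2 fell, against 7.44% of genes (4.29% higher and 3.15% lower). Pcdhb20 went from 33.9, 22.4 and 30.3 CPM to 9.05, 10.9 and 13.1 CPM (log2 change -1.21, SE 0.28, limma adjusted p = 0.0101). The gamma A-type gene Pcdhga8 went from 16.5, 13.5 and 15.6 CPM to 4.83, 2.01 and 5.58 CPM (log2 change -1.82, SE 0.56, adjusted p = 0.047). Libraries of the 2 ages did not overlap in either gene. Without P1 replicate 1 the count was 0, and it was 1 without P1 replicate 2 or any single P8 library. P1 replicate 1 had connective tissue markers (Col1a1, Col3a1 and Dcn) at 265 CPM, against 14.1 and 16.9 CPM in the other P1 libraries. Its proliferation markers (Mki67 and Top2a) were at 155 CPM against 3.27 and 7.03 CPM. Its vascular markers (Pecam1 and Cldn5) were at 60.1 CPM against 0.120 and 0.867 CPM. Their part in the steps to and from P1 was not tested. From P8 to P14 limma called 0 members (5 at an unadjusted p under 0.05, and 1 by DESeq2), against 0.536% of genes (0.251% higher and 0.285% lower). From P14 to P30 it called 0 (1 at an unadjusted p under 0.05, and 1 by DESeq2), against 0.0596% of genes (0.0331% higher and 0.0265% lower).

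Over the whole course from E15.5 to P30, 3 members rose and 17 fell, against 34.6% of all genes tested (18.4% higher and 16.2% lower). The falls were mostly in gamma, where 13 of 21 tested members fell and 0 rose. The median log2 change of tested gamma members was -1.68, against -0.0064 for all genes, and 20 of 21 were negative. With library size alone the median of all genes moved to -0.48 and that of gamma to -2.15, with 21 of 21 negative. By type, 6 of 11 A-type, 6 of 7 B-type and 1 of 3 C-type genes fell. Proliferation markers (Mki67 and Top2a) were at 31.8 to 87.2 CPM in E15.5 and 0.877 to 4.61 CPM in P30 libraries. At P1 they were at 155, 3.27 and 7.03 CPM, in libraries with gamma sums of 314, 295 and 257 CPM. Their part in the gamma fall was not tested. The count of 20 calls became 10 without P30 replicate 1 or without P30 replicate 3.

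Among the gamma genes called, the falls were largest for Pcdhgb6, Pcdhgb7 and Pcdhga9. Pcdhgb6 went from 23.0, 25.1 and 26.3 CPM at E15.5 to 4.83, 1.13 and 1.40 CPM at P30 (log2 change -3.03, SE 0.70, limma adjusted p = 0.00269). Pcdhgb7 went from 15.52, 6.62 and 9.62 CPM to 0.751, 1.37 and 0.837 CPM (log2 change -2.88, SE 0.81, adjusted p = 0.00972). Neither gene had overlapping libraries at the 2 ages. Pcdhga9 went from 37, 11.7 and 20.6 CPM to 1.90, 2.06 and 3.11 CPM (log2 change -2.65, SE 0.62, adjusted p = 0.00281). Pcdhgb5 fell by 2.28, Pcdhga8 by 2.19, Pcdhga12 by 1.87 and Pcdhgb2 by 1.83 on the same scale. Pcdhga11 had a change of -2.24 and did not pass the test (adjusted p = 0.0752). The calls for Pcdhga8, Pcdhga9, Pcdhga12, Pcdhgb6, Pcdhgb7 and Pcdhgc3 were kept in every alternative setting, whereas those for the other 7 gamma genes were lost in at least 1. In CPM without TMM factors, a gamma member reached its highest SGN mean at E15.5 in 18 cases and at P1 in 3. The same count over all genes was not made, and with library size alone 9503 of 15113 genes were lower at P30 than at E15.5.

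The 3 gamma C-type genes differed from each other. Pcdhgc3, the gamma gene with the highest unshared RPKM over the SGN libraries (11.5), had 45.4, 39.5 and 40.7 CPM at E15.5 and 10.8, 10.6 and 5.50 CPM at P30. Its log2 change was -1.76 (SE 0.49, limma adjusted p = 0.00919), with no overlap. Pcdhgc4, which codes for a protocadherin linked to neuron survival, had 25, 27.5 and 12.1 CPM at E15.5, 24.2, 42.8 and 50.1 CPM at P1 and 13.1, 21.4 and 11.96 CPM at P30. Its log2 change from E15.5 to P30 was 0.025 (SE 0.46, adjusted p = 0.971), and the groups overlapped. Pcdhgc5 had 35.9, 1.39 and 38.6 CPM at E15.5 and 1.58, 0.981 and 1.36 CPM at P30. The low E15.5 value, in replicate 2, lay within the P30 range, and the change of -2.63 (SE 1.35, adjusted p = 0.129) did not pass.

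**Figure D4:**
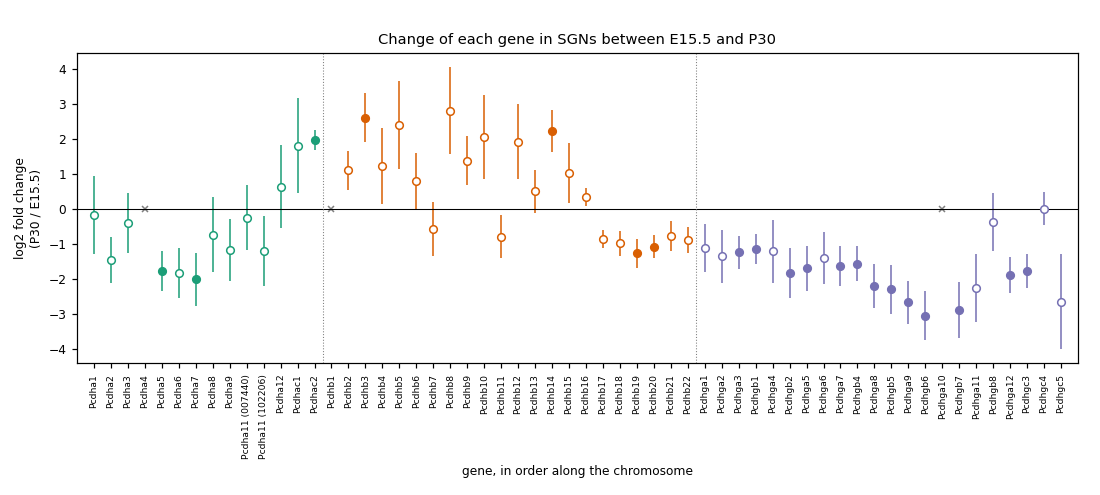
Log2 fold change from E15.5 to P30 in SGNs (vertical axis, with SE) for each member in chromosome order (horizontal axis), with filled symbols for calls and crosses for the 3 members not tested. Gamma members lie below 0 in 20 of 21 cases, with the lowest value at Pcdhgb6 (-3.03), while Pcdhac2 (1.98) is the one alpha call above 0.

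Beta members moved in both directions over the same interval, with 2 higher and 2 lower of 21 tested. Pcdhb3 rose by 2.62 on the log2 scale (SE 0.70, limma adjusted p = 0.00723), reaching 11.2, 9.47 and 13.4 CPM at P30, above all E15.5 libraries. Pcdhb14 rose by 2.25 (SE 0.61, adjusted p = 0.00765) with 26.9, 22.7 and 19.4 CPM at P30, and its lowest P30 value lay under the highest E15.5 value. Pcdhb20 fell by 1.07 (SE 0.33, adjusted p = 0.0165) and Pcdhb19 fell by 1.26 (SE 0.42, adjusted p = 0.0252). The Pcdhb3 call was kept in all 15 alternative settings that tested it, Pcdhb14 in 15 of 16, Pcdhb20 in 12 of 16 and Pcdhb19 in 11 of 16. The median log2 change of beta members was 0.80 although their summed CPM was lower at P30, and the sum weights genes by their counts whereas the median does not.

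Read in chromosome order, the beta changes fell into 2 stretches, a division chosen after the values were seen and therefore given without a test. From Pcdhb2 to Pcdhb16, 13 of 15 members had positive log2 changes from E15.5 to P30 (median 1.24). From Pcdhb17 to Pcdhb22, 0 of 6 were positive (median -0.92). With library size alone the counts were 12 of 15 and 0 of 6. Pcdhb17 and Pcdhb18, of the second stretch, had the highest unshared RPKM of the cluster at E15.5 (15.4 and 10.1). Pcdhb17 had 67.6, 62.3 and 85.9 CPM at E15.5 and 26.1, 36.1 and 26.7 CPM at P30, and Pcdhb18 had 61.8, 58.1 and 33.5 CPM and then 17.3, 20.3 and 16.7 CPM. Pcdhb22, the last beta gene, had 39.6, 24.3 and 70.9 CPM and then 13.8, 23.1 and 14.4 CPM. In CPM, which holds no TMM factor, the libraries of the 2 ages did not overlap in any of the 3 genes. For Pcdhb22 the gap was only 23.1 to 24.3 CPM. None of the 3 passed the test between these ages, which used TMM. Pcdhb16 had 51.8, 41.3 and 27.4 CPM at E15.5 and 33.5, 43.6 and 30.9 CPM at P30, with overlapping ranges.

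The beta members were more even after E15.5. The effective number of beta members was 9.84 ± 0.825 (SD, n = 3) at E15.5, 14.7 ± 0.996 at P1 and 14.3 ± 1.16 at P30, and no E15.5 library (highest 10.6) reached any later SGN library (lowest 13.0). Within the cluster, the level in unshared RPKM went with position toward the 3' end, with a Spearman coefficient of 0.66 over the SGN libraries across 22 genes that share libraries and neighbourhood. By age it was 0.70 at E15.5 and 0.63 at P1, and then 0.50, 0.47 and 0.42 at the 3 later ages. It was 0.41 in HCs and 0.60 in glia. In alpha and gamma it was -0.055 and -0.14 over the SGN libraries.

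Pcdhb1, the first gene of the beta cluster, was measured almost only in HCs. HC libraries held 295, 780 and 612 counts, or 24.2, 45.6 and 34.1 CPM. The 15 SGN libraries together held 11 counts, with 0 in every E15.5 and P1 library, 2, 0 and 2 at P8, 4, 0 and 2 at P14, and 0, 1 and 0 at P30. The 3 glial libraries held 0. Over pooled counts the HC level was 1228 times the SGN level, with a 95% interval of 684 to 2464 from counting error alone. Against glia it was at least 501-fold higher, taking 3 counts over the group as the floor. In limma the difference between the mean of the SGN ages and HCs was -9.37 on the log2 scale (SE 0.41, adjusted p = 1.25e-13), a fitted value that depends on the prior count. Pcdhb1 passed the filter of that fit through HC libraries alone. The call was kept in all 26 alternative settings.

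In HCs Pcdhb1 had the highest unshared RPKM of the beta cluster (13.4) and 13.1 to 25.6% of its share, close to Pcdhb18 (12.9). Pcdhb18 itself had 65.2, 61.6 and 68.0 CPM in HCs, and SGN libraries ranged from 14 to 61.8 CPM, so HC replicate 2 lay just under the highest SGN library. It did not pass the test against the mean of the SGN ages. Among alpha genes the HC order by unshared RPKM was led by Pcdha12 (4.33), ahead of Pcdha2 (2.11). Pcdha12 had 8.85, 7.19 and 9.20 CPM in HCs, within the SGN range of 0.0776 to 11.6 CPM. Among gamma genes Pcdhga7 led in HCs (8.59). The effective number was 6.76 ± 1.41 for alpha, 9.37 ± 1.149 for beta and 16 ± 1.18 for gamma in HCs.

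Cell types were compared with limma on all 21 libraries, in which 56 members passed the filter (not Pcdha4 and Pcdhga10). Here a call needed more than 4-fold and an adjusted p under 0.01. Between the mean of the 5 SGN ages and HCs, SGNs had 3 members higher and 1 lower, against 26.8% of all genes tested (10.5% higher and 16.2% lower). Besides Pcdhac2 and Pcdhb1, these were Pcdhb9, higher by 4.57 (SE 1.25, limma adjusted p = 0.00409), and Pcdhgc3, higher by 2.18 (SE 0.61, adjusted p = 0.00504). Pcdhb9 had 2.29, 0 and 0.335 CPM in HCs and 1.44 to 10.3 CPM in SGNs, so HC replicate 1 overlapped the SGN range. Like Pcdhac2, Pcdhb9 passed the filter of this fit through SGN libraries alone. Pcdhgc3 had 9.42, 6.60 and 2.73 CPM in HCs, which overlapped SGNs from P14 on. The Pcdhb9 call was kept in 21 of 25 alternative settings and the Pcdhgc3 call in 20 of 26.

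Between P14 SGNs and P12 HCs, the nearest ages, SGNs had 2 members higher and 3 lower, against 23.1% of genes (10.9% higher and 12.2% lower). Pcdha7 was higher in SGNs, with 3.83, 5.76 and 2.85 CPM against 0.328, 2.4 and 0.335 CPM in HCs (log2 difference 3.25, SE 0.95, limma adjusted p = 0.00831). This call was kept in only 2 of 13 alternative settings, with an adjusted p of up to 0.0555. Pcdha7 passed the filter through SGN libraries alone. Pcdhga12 was lower, with 1.43, 2.17 and 1.45 CPM against 19.0, 18.6 and 27.3 CPM (log2 difference -2.98, SE 0.65, adjusted p = 0.000798). Pcdhgb5 was lower too, with 5.26, 2.51 and 0.725 CPM against 28.8, 24.1 and 29.8 CPM (log2 difference -2.88, SE 0.72, adjusted p = 0.00258). None of these genes overlapped between the groups in CPM. In CPM, 10 further gamma members were lower in all P14 SGN libraries than in all HC libraries without being called. CPM holds no TMM factor, and with library size alone 11718 of 17531 genes tested were lower in P14 SGNs. The share of all genes without overlap was not counted. The median log2 difference was 1.49 for alpha, 0.69 for beta and -0.65 for gamma. Scaling mattered here, since with library size alone the median of all genes was -0.75, and beta went to -0.018 with 11 members on each side.

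Glia differed from SGNs most in the alpha cluster. Against the mean of the SGN ages, SGNs had 22 members higher and 1 lower, against 24.7% of all genes tested (14.3% higher and 10.4% lower). The 22 were 12 of 13 tested alpha genes, 8 of 22 beta genes and 2 of 21 gamma genes. No alpha gene was above 1 CPM in all glial libraries, so the filter kept alpha genes only through SGN or HC libraries. None of the beta and gamma genes called higher in SGNs, here or at P8, was above 1 CPM in all glial libraries either. The counts against glia, and the medians of alpha genes, depend in part on that filter. The median log2 difference was 5.11 for alpha (4.84 with members at 0 in glia set to their bound), 2.72 for beta and 0.0038 for gamma, where all genes had 0.22. With library size alone the gamma median was -0.072. At the matched age of P8, SGNs had 21 members higher and 0 lower, against 20.9% of genes (13.4% higher and 7.53% lower), and they were 11 alpha, 8 beta and 2 gamma genes. P8 SGN libraries themselves carried 799 to 1082 CPM of glial markers.

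The glial libraries disagreed on single members. Without glia replicate 1, the library with 248 CPM of SGN markers, the P8 count was 26 and the count against the mean of the ages was 27. The P8 count was 9 without glia replicate 2 and 8 without glia replicate 3, and the count against the mean of the ages was 13 and 14. Weighting libraries by their quality left 1 and 2 calls. Pcdhac2 kept its call against glia in every setting, and no other member did.

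Several members were at or near 0 in glia. Pcdha6 had 1.152, 0.608 and 0.912 CPM in P8 SGNs and 0 in all glial libraries, so it was at least 12.6-fold higher with 3 counts over the glial group as the floor. Pcdhb12, which has an overlapping gene on the other strand, had 1.52, 1.46 and 4.52 CPM in P8 SGNs and 0 in glia, at least 33.4-fold higher, and HCs were at least 31.8-fold above glia. Pcdha2 had 10.1, 24.5 and 6.42 CPM in P8 SGNs against 1.32, 0.167 and 0 CPM in glia (log2 difference 5.70, SE 1.13, limma adjusted p = 0.000396). Pcdha9 (5.94), Pcdhac1 (6.02), Pcdhb15 (5.89), Pcdhb4 (5.12) and Pcdhgc4 (5.38) had log2 differences of like size. Pcdhgc4 had 14, 22.9 and 24 CPM in P8 SGNs and 2.28, 0 and 1.16 CPM in glia, with no overlap. Pcdhb4 had 9.92, 4.93 and 11.1 CPM against 6.28, 0 and 0 CPM, and glia replicate 1 fell within the SGN range.

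The gamma A- and B-type members summed to 249 ± 59.2 CPM in glia against 118 ± 9.60 CPM in P8 SGNs, with no overlap (lowest glial library 210 CPM, highest SGN library 125 CPM). The glial libraries also carried other markers. Connective tissue markers (Col1a1, Col3a1 and Dcn) summed to 810 to 1509 CPM in glia and 15.3 to 134 CPM in P8 SGNs, and proliferation markers to 225 to 1244 CPM and 5.96 to 8.36 CPM. Their part in the gamma sum was not tested. Pcdhgb4 had 12.9, 44.3 and 68.3 CPM in glia and 6.49, 8.55 and 7.08 CPM in P8 SGNs. It was the 1 member lower in the mean of the SGN ages than in glia (log2 difference -2.18, SE 0.38, limma adjusted p = 8.43e-05), with an overlap through E15.5 replicate 1 at 21.1 CPM. Pcdhga11 had the highest unshared RPKM in glia (15), with 4.61, 14.6 and 37.4 CPM. Pcdhgb1 had 46.2, 40.7 and 0.964 CPM and Pcdhb16 had 62.4, 0.502 and 3.67 CPM, so these means rested on 1 or 2 libraries. Pcdhb17 was alike across glia at 29.5, 47.0 and 46.3 CPM. Pcdha3, with Pcdhac2 at the top of the glial alpha order, had 3.54, 0 and 0 CPM.

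The spread between libraries was wide for these genes. Among members averaging more than 1 CPM, the median coefficient of variation was 102% in glia, where all genes had 71.4%. It was 32.7 to 54.9% in the SGN groups and 36.5% in HCs, where all genes had 21.4 to 50.1% and 24.0%. HC libraries were made from about 1200 cells and SGN libraries from 69 to 195, and the part of cell number in the spread was not tested.

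**Figure D5:**
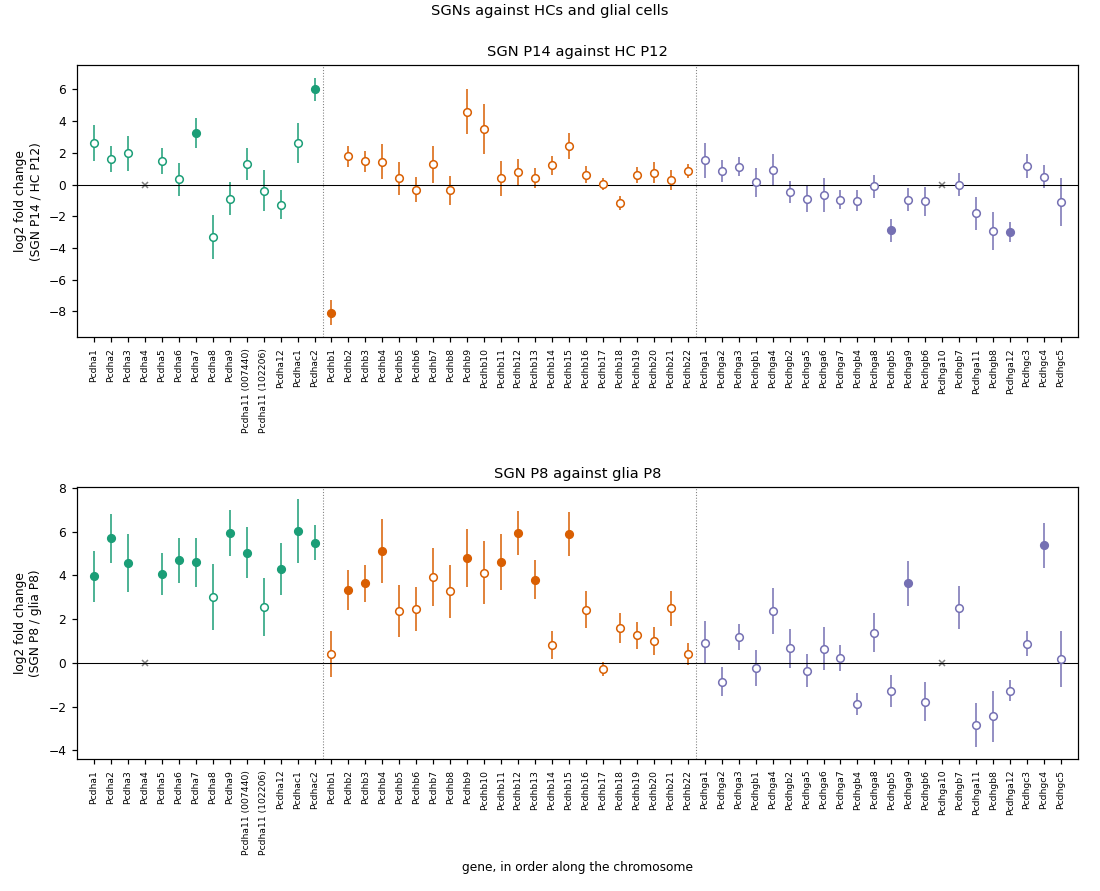
Log2 difference between P14 SGNs and HCs, and between P8 SGNs and glia (vertical axes, with SE), for each member in chromosome order, with filled symbols for calls. Pcdhb1 is the lowest value against HCs (-8.07) and Pcdhac2 the highest (6.00). Against glia all 13 tested alpha members lie above 0, and none of them passed the filter through glia.

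Between HCs and glia, HCs had 7 members higher and 0 lower, against 24.4% of all genes tested (16.2% higher and 8.18% lower). They were Pcdha9, Pcdha12, Pcdhb1, Pcdhb12, Pcdhb13, Pcdhb18 and Pcdhga9. Only Pcdhb18 of these was above 1 CPM in all glial libraries, so the filter kept the others only through HC or SGN libraries. Pcdhb13 had 8.44, 3.92 and 13.8 CPM in HCs against 1.16, 0.167 and 0.193 CPM in glia (log2 difference 3.77, SE 0.92, limma adjusted p = 0.00222), and Pcdhb18 had 22.2, 5.02 and 1.35 CPM in glia (difference 2.86, SE 0.68, adjusted p = 0.00183). Neither gene overlapped between the 2 groups. Pcdhga9 had 11.3, 20.98 and 14.1 CPM in HCs and 2.68, 0 and 2.60 CPM in glia (difference 3.97, SE 1.03, adjusted p = 0.00369). Only the Pcdhb1 call was kept in every alternative setting, and the count was 2 without glia replicate 2 and 13 without glia replicate 1.

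Genes known to act on the choice of protocadherin promoters and on chromatin at the clusters were read from the same fits. Of 18 (among them Ctcf, cohesin subunits, DNA methyltransferases and the Setdb1 and Trim28 repressors), 0 rose and 5 fell between E15.5 and P30, with a median log2 change of -0.53, where 16.2% of all genes fell. Setdb1, a histone H3 lysine methyltransferase, fell by 1.45 (88.6 to 195 CPM at E15.5 and 30.2 to 42.7 CPM at P30, limma adjusted p = 0.000525). Wiz, a zinc finger protein, fell by 1.44 (adjusted p = 0.00226), and Trim28, a corepressor that binds Setdb1, fell by 1.31 (adjusted p = 0.000146). The cohesin subunit Stag1 fell by 1.18 and the cohesin loader Nipbl by 1.03, genes named here after their values were seen. The calls for Setdb1, Wiz and Trim28 were kept in every alternative setting, Stag1 in 14 of 16 and Nipbl in 12 of 16. Between the mean of the SGN ages and HCs, limma called 0 of the 18 in either direction (6 at an unadjusted p under 0.05), as did edgeR and DESeq2. In the P8 comparison with glia Stag1 was the 1 call (log2 difference -2.18, limma adjusted p = 1.16e-06). There 14 of the 18 had an unadjusted limma p under 0.05, and their median log2 difference was -0.99, where all genes had 0.22.

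Dnmt3a, a de novo DNA methyltransferase, was highest at P8 among the SGN ages. It went from 186 to 259 CPM in E15.5 libraries to 433 to 487 CPM in P1 and 711 to 822 CPM in P8 libraries. It was then at 456 to 495 CPM in P14 and 104 to 141 CPM in P30 libraries. It rose by 1.13 on the log2 scale from E15.5 to P1 (limma adjusted p = 0.000357, kept in 14 of 16 alternative settings) and fell by 2.03 from P14 to P30 (adjusted p = 5.1e-06). No 2 neighbouring ages overlapped. HCs had 498 to 547 CPM and glia 104 to 284 CPM.

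Of 14 genes for intracellular partners and processing of the protocadherins, 3 rose and 1 fell between E15.5 and P30, where 18.4% of all genes rose and 16.2% fell. Pdcd10 rose by 1.69, Cyfip2, a subunit of the WAVE actin regulatory complex, by 1.43 and Nckap1 of the same complex by 1.09. Their calls were kept in 16, 15 and 14 of 16 alternative settings. Adam10, the protease that sheds protocadherin ectodomains, fell by 1.54 (71.2 to 110 CPM at E15.5 and 19.8 to 22.2 CPM at P30, limma adjusted p = 0.000517). In glia, Fyn, a Src-family kinase, was at 189 to 379 CPM against 20.6 to 78.3 CPM in SGNs, and Cyfip1 was at 139 to 278 CPM against 17.1 to 55.6 CPM. Both were called lower in SGNs (log2 differences -2.45 and -2.45). Ret, the receptor tyrosine kinase that associates with protocadherins, was at 0 in all HC libraries and at 0.749 to 149 CPM in SGNs. Ptk2b was higher in HCs, at 5.00 to 11.7 CPM, than in glia, at 0.193 to 1.42 CPM (log2 difference 3.57, adjusted p = 0.00385), a call kept in 7 of 13 alternative settings (adjusted p up to 0.0989).

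The non-clustered protocadherins, single genes elsewhere in the genome, were the third list. Of 12, 10 were tested across ages, and 3 rose and 2 fell between E15.5 and P30, against the same 18.4% and 16.2% of all genes. Pcdh9 rose by 2.30 (158 to 274 CPM to 619 to 959 CPM), whereas Pcdh19 fell by 2.90 (32.4 to 46.8 CPM to 1.08 to 7.11 CPM) and Pcdh1 fell by 1.68. Pcdh20 rose by 3.24 from E15.5 to P1 (limma adjusted p = 0.0135) and by 2.27 from E15.5 to P30, and Pcdh7 by 1.18. The first Pcdh20 call was kept in 15 of 16 alternative settings, but that from E15.5 to P30 in 7 of 16 (adjusted p up to 0.178). Against HCs, Pcdh15, the tip-link component of the hair bundle, was lower in the mean of the SGN ages by 4.99 on the log2 scale, with 233 to 283 CPM in HCs and 2.4 to 10.54 CPM in SGNs. Pcdh20 was at 746 to 885 CPM in HCs and at 2.33 to 46.6 CPM in SGNs. Pcdh19 was at 0, 0 and 0.223 CPM in HCs, under the 3-count floor in 2 of these libraries. Pcdh10 was at 10.3 to 45.4 CPM in SGNs and at most 1.80 CPM in HCs, and Pcdh17 was at 20.3 to 141 CPM in SGNs and at most 2.95 CPM in HCs.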

How the data were processed

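RNA of picked or sorted tdTomato-positive cells was amplified with Ovation RNA-Seq V2 and sequenced. Per the labels and methods, the authors aligned reads with STAR (version 2.4.0i) to mm10 and counted them with featureCounts on GENCODE annotation; settings for strand and shared exons are not given in the sources used here. The deposited values are raw counts per gene for 21 samples, with gene lengths. Groups were taken from the sample labels.

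Genes above 1 CPM in all libraries of a group were kept, scaled by TMM (edgeR 4.0.16) and tested with voom in limma 3.58.1 (R 4.3.3), with Benjamini-Hochberg adjustment over 15113 genes in 15 SGN libraries and 17531 genes in 21 libraries. The scripts were tested on simulated data. DESeq2 1.42.0, edgeR's quasi-likelihood test, other scalings, filters, weights and sample sets were alternatives. Unshared exon lengths came from a later GENCODE annotation of GRCm38, in which all 58 members had the deposited length. Named were C-type members, the 3 leading members of each cluster in SGNs and the 2 leading ones in HCs and in glia by mean CPM, at most 8 called members per contrast and direction, at most 4 called genes per pathway list, and Pcdhb1, Pcdhb16 and Pcdhb22. Other members are named where a count of 5 or fewer includes them. Members and lists were chosen with earlier results of these data known. No sequences are printed.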

Additional observations from a re-analysis of the deposited data

How the results depend on the processing

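Of the single genes called in the report, no alternative reversed a direction. The calls of 8 of 20 members from E15.5 to P30 were kept under every setting, as were 3 of 5 between P14 SGNs and HCs, 2 of 4 between the mean of the SGN ages and HCs, 1 of 21 between P8 SGNs and glia, 1 of 23 between the mean of the ages and glia, 1 of 7 between HCs and glia, 0 of 3 from E15.5 to P1 and 0 of 2 from P1 to P8. The cause of the changes was not tested unless the setting itself shows it (fewer genes or fewer libraries).

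The count of members called from E15.5 to P1 (3) was 1 with edgeR's quasi-likelihood test, 1 with a filter of 10 CPM, 0 with sample quality weights and 0 with the 2 ages alone. From P1 to P8 (2) it was 1 with edgeR, 1 with no filter, 6 with quality weights and 0 in the fit of all 21 libraries. From P8 to P14 (0) and from P14 to P30 (0) it was 1 with DESeq2. From E15.5 to P30 (20) it was 13 with no filter, 12 with the 2 ages alone and 12 in the fit of all 21 libraries. Against HCs, the mean of the ages (4) gave 11 with quality weights and P14 SGNs (5) gave 3 with edgeR. Against glia, the mean of the ages (23) gave 8 with a filter of 10 CPM and 2 with quality weights, and P8 SGNs (21) gave 6 and 1. HCs against glia (7) gave 12 with library size alone, 17 with DESeq2, 3 with the filter of 10 CPM and 1 with quality weights. With library size alone the calls between the mean of the ages and HCs were 2 higher and 4 lower, and with DESeq2 size factors 2 higher and 2 lower; between P14 SGNs and HCs both scalings gave 1 higher and 3 lower.

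Leaving out 1 library at a time gave 0 to 6 members from E15.5 to P1, with 0 without E15.5 replicate 3, 1 without E15.5 replicate 1 or P1 replicate 2, and 6 without E15.5 replicate 2. It gave 0 to 2 from P1 to P8, 0 to 0 from P8 to P14 and from P14 to P30, and 10 to 23 from E15.5 to P30. It gave 2 (without HC replicate 3) to 6 for the mean of the ages against HCs, 13 to 27 for the mean of the ages against glia, 3 (without P14 replicate 3) to 5 for P14 SGNs against HCs, 8 to 26 for P8 SGNs against glia and 2 to 13 for HCs against glia.

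The samples were not treated as paired by replicate number, since in no comparison did all 3 same-numbered pairs correlate above 0.1. Replicate 1 pairs did correlate at 0.36 from P1 to P8, 0.31 from P8 to P14 and 0.37 from P14 to P30. They were at -0.056 from E15.5 to P1 and -0.068 from E15.5 to P30, and negative between cell types. Whether the numbers mark a shared batch was not settled. With the replicate number as a block the counts in the order above were 3, 3, 0, 0, 21, 5 and 24, then 4 for P14 SGNs against HCs, 21 for P8 SGNs against glia and 9 for HCs against glia, and the Pcdha7 call between P14 SGNs and HCs was lost.

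Mean cluster sums moved by more than 1 SD between libraries in these cases. With TMM factors, alpha was 126 CPM at P30 and 24.8 CPM in HCs, beta was 331 CPM for E15.5, 273 for P8, 265 for P14, 277 for P30 and 212 for HCs, and gamma was 179 for P8, 133 for P14 and 179 for HCs. With mitochondrial genes left out of the totals, alpha was 143 CPM for P1, 135 for P8, 155 for P14 and 129 for P30. On that scale beta was 428 for E15.5, 480 for P1, 313 for P8, 287 for P14, 282 for P30 and 325 for HCs, and gamma was 353 for P1, 206 for P8, 146 for P14 and 275 for HCs. The effective number without length correction was 3.01, 2.33 and 2.00 for alpha at P8, P14 and P30, 8.90, 12.6, 13.9, 13.2 and 12.1 for beta over the 5 ages, and 14.98, 13.1 and 13.02 for gamma at E15.5, P8 and P14. With the deposited gene length it was 2.11 for alpha at P30, 14.7 for gamma at E15.5 and 13.01 for gamma at P8. Depth set a floor of 0.0805 to 0.289 CPM for 3 counts, so members near it, as in glial alpha, were not measurable more finely.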
